A study of Homo sapiens with 16 samples.

Results

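BG4 CUT&Tag peaks found after knockdown of BAZ2B were compared with those found after control siRNA, peak by peak. The material was A549, an established human lung carcinoma line of epithelial origin, transfected at 71 nM for 48 hours with control siRNA (siControl) or with siRNA against BAZ2B (siBAZ2B). The labels give no other difference between these 2 groups of 4 samples. Drosophila chromatin was added to all samples, and whether it served for scaling was not stated in the labels. The series has 16 samples in 4 groups, and the other 2 groups are BG4 after siRNA against BAZ2A and H3K4me3 after siControl. Members were taken as the 4865 peaks of the siBAZ2B list and the 3332 peaks of the siControl list, 8197 of 31050 peaks in all 4 lists. A siBAZ2B peak with 1 base or more in common with a siControl peak was called shared and any other siBAZ2B peak gained. A siControl peak with no base in common with a siBAZ2B peak was called lost. Each group of 4 replicates has 1 list, made of peaks seen in at least 2 of them. Each peak name in a list carries the same run name, so positions, folds and summits are those of 1 replicate's calls. Hence no value here has a replicate error and no difference between the conditions was tested. The depth of the libraries was not analysed here, so unequal depth and altered G4 formation cannot be told apart. Intervals are 95% intervals that cover counting error over peaks only (Wilson for a share, order statistics for a median). The level of BAZ2B after knockdown was not analysed here.

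G-quadruplexes (G4s) are 4-stranded structures that form where guanine-rich DNA stacks on itself, and in human cells they are known to concentrate in open, active promoters. BG4 is an engineered antibody fragment that binds folded G4 DNA. In CUT&Tag it directs a transposase that inserts sequencing adapters nearby, so a peak marks a place where the antibody was held on chromatin. BAZ2B is a bromodomain protein related to BAZ2A and works with ISWI ATPases, which slide nucleosomes. H3K4me3 is the histone mark of active promoters.

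After knockdown of BAZ2B, 2139 of 4865 peaks were gained (44.0% of the list) and 2726 were shared. Of the 3332 siControl peaks, 621 were lost (18.6%) and 2711 were shared. The gained peaks covered 1.07 Mb and the shared siBAZ2B peaks 1.82 Mb, while the lost peaks covered 0.293 Mb. Gained peaks outnumbered lost ones, but the siBAZ2B list was also the longer list, and with both lists cut to 3332 peaks by fold the numbers were 1263 and 1259. That setting forces the numbers close together.

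Fold is a peak's enrichment over local background, a value of the authors' peak caller. It was used only to rank peaks within their own list, from percentile 0 for the weakest to 100 for the strongest. Gained peaks had a median percentile of 38.5 (37.0 to 40.4), with quartiles of 19.4 and 61.0. Shared siBAZ2B peaks had a median of 61.1 (59.3 to 62.7). Lost peaks had a median of 22.7 (20.1 to 25.1) in the siControl list, against 56.5 for the shared siControl peaks. Both sets without a counterpart therefore leaned to the weak side of their lists. Gained peaks were 44.0% of a list of 4865 and lost peaks 18.6% of a list of 3332. A set that makes up more of its list is held closer to the middle, so 38.5 against 22.7 does not compare the strength of the 2 sets.

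By decile of fold, the gained share formed a plateau and then a slope. It was 56.8% in the weakest decile (52.3 to 61.1), 56.7% in the second and 59.6% in the third (55.2 to 63.9), and these 3 intervals overlap. In the sixth decile it was still 47.9%, in the ninth 28.4% and in the strongest 13.6% (10.8 to 16.9). The lost share had no plateau. It was 47.9% in the weakest decile of siControl (42.6 to 53.3), 37.2% in the second, 13.5% in the sixth and 0.901% in the strongest, which is 3 of 333 peaks.

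Ranking by the −log10 of the q-value, the caller's measure of confidence, removed the plateau. The gained share was then 77.3% in the lowest decile (73.4 to 80.8), 55.0% in the fourth, 24.2% in the eighth and 3.29% in the highest (2.03 to 5.27). The lost share was 54.7% in the lowest decile, and each of the 2 highest deciles had 1 lost peak of 333. Of the gained peaks, 66 lay in the top decile by fold and 16 in the top decile by −log10 q.

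**Figure D1:**
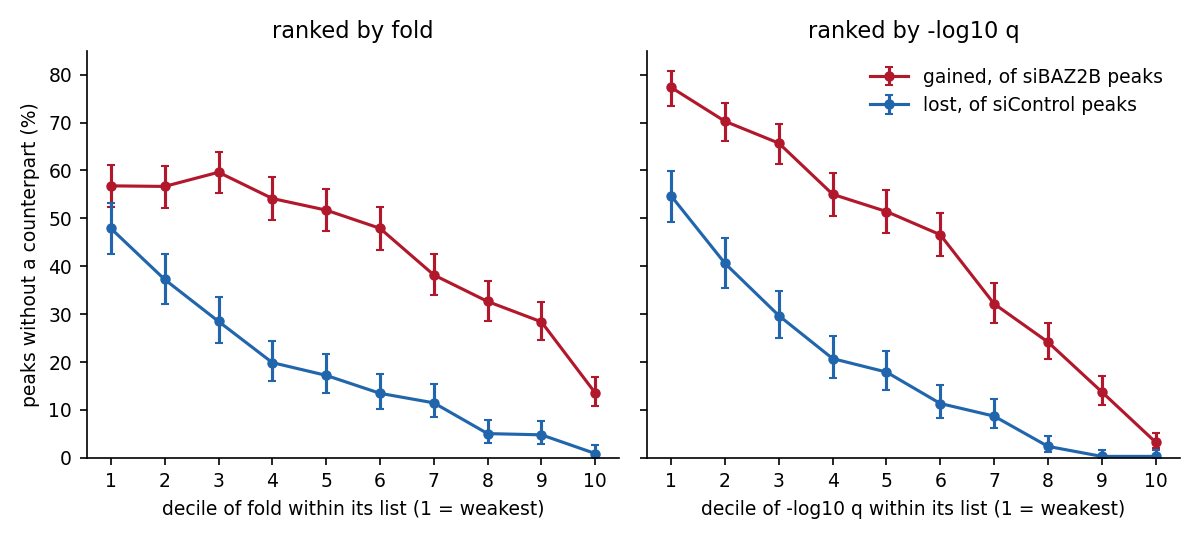
Share of siBAZ2B peaks that were gained (red) and of siControl peaks that were lost (blue), in percent, by decile of strength within the list, ranked by fold (left) or by −log10 q (right). Points are shares and bars 95% Wilson intervals; the gained share stays near 57% over the 3 weakest deciles by fold and goes from 77.3% to 3.29% by −log10 q.

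The strongest gained peak ranked only 45 in the siBAZ2B list, below 44 shared peaks. It lay at chrX:47092760-47093211 with a fold of 11.7 and a −log10 q of 19.4, and the nearest siControl peak was 14723 bases away. Next by fold came chr12:27090922-27091354 at rank 62 (fold 11.1) and, both at rank 64, chr12:64173617-64174019 and chr3:99979631-99980083. The others of the top 10 were chr11:82996833-82997580 (fold 10.8), chrX:55026377-55026747 (10.8), chr1:119682916-119683350 (10.6), chr16:188455-188941 (10.4), chr12:127650406-127651027 (10.2) and chr9:125693595-125694124 (10.02). Gaps from these 10 peaks to the nearest siControl peak ran from 9119 bases, at the chromosome 9 peak, to 1154681 bases, at chr1:119682916-119683350. Of these 10 peaks, 9 also overlapped a peak of the siBAZ2A list, all but chr3:99979631-99980083. Those 9 were therefore not particular to knockdown of BAZ2B. Signal in siControl below the calling threshold is not in the lists.

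All 10 of these gained peaks sat on an H3K4me3 region, as did 87.8% of all gained peaks (86.3 to 89.1), 92.4% of shared siBAZ2B peaks and 79.2% of lost peaks. Their summits lay 4 to 143 bases from the summit of that region, closest at chr1:119682916-119683350 (4 bases) and chrX:55026377-55026747 (6 bases). Several of the regions were among the strongest of the H3K4me3 list. The one at chr12:64173617-64174019 stood at percentile 98.3 of H3K4me3 fold, the one at chr3:99979631-99980083 at 97.8 and the one at chrX:47092760-47093211 at 96.8. Not all were strong, as the region at chr12:27090922-27091354 stood at percentile 40.03. H3K4me3 was profiled in siControl samples only, so the mark at these regions after knockdown of BAZ2B is not known.

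The strongest lost peak stood well above the others. The peak at chr1:228361593-228362201 had a fold of 13.5, rank 47 of the siControl list, and a −log10 q of 43.6. It lay outside H3K4me3, and the siBAZ2B list had its nearest peak 7243 bases away, at chr1:228353328-228354349 with a fold of 6.89. The next lost peaks by fold were chr15:57179358-57179844 (fold 10.6, rank 228), chr6:4136024-4136447 (10.4, rank 263) and chr1:42501384-42501747 (9.83, rank 350). The remaining 6 of the top 10 had folds of 8.89 to 9.25 and ranks of 489 to 613, on chromosomes 13, 14, 15, 17 and 19. Strong siControl peaks without a siBAZ2B counterpart were few, with only the first 3 of the top 10 in the top decile. The siBAZ2A list had peaks at the lost peaks given here by position, with folds of 7.49, 7.59, 7.62 and 8.93 in that order. It also had a peak at the lost peak on chromosome 19 (fold 7.62) and none at the others of the top 10.

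Gained and lost peaks were narrow. The median width was 465 bp for gained (455 to 477) and 640 bp for shared siBAZ2B peaks (629 to 650), a ratio of 0.727. In the siControl list it was 420 bp for lost (411 to 444) and 632 bp for shared peaks (622 to 642). A wider peak has more bases in which to meet a counterpart, so part of this order is built into the overlap rule. Of siBAZ2B peaks under 400 bp, 69.8% were gained (67.0 to 72.5), against 32.5% of those of 600 to under 800 bp and 7.35% of those of 1000 bp or more (4.70 to 11.3). Lost shares over the same widths were 45.3%, 9.94% and 1.88%.

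The width difference was present at every level of strength. Gained peaks had a smaller median width than shared peaks in each of the 10 deciles of fold, from 416.5 against 536 bp in the weakest decile to 522 against 639 bp in the strongest. The same held in each decile of −log10 q, with 407.5 against 458 bp in the lowest and 470 against 771 bp in the highest. Lost peaks were narrower than shared siControl peaks in each decile of fold, with 381 against 525 bp in the weakest. By −log10 q there was 1 exception, the ninth decile, whose single lost peak was 803 bp wide against a shared median of 718 bp. Within a peak the summit sat close to the middle in every set, at a median of 48.2% of the width for gained, 48.7% for shared siBAZ2B and 45.8% for lost peaks (44.8 to 47.5).

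**Figure D2:**
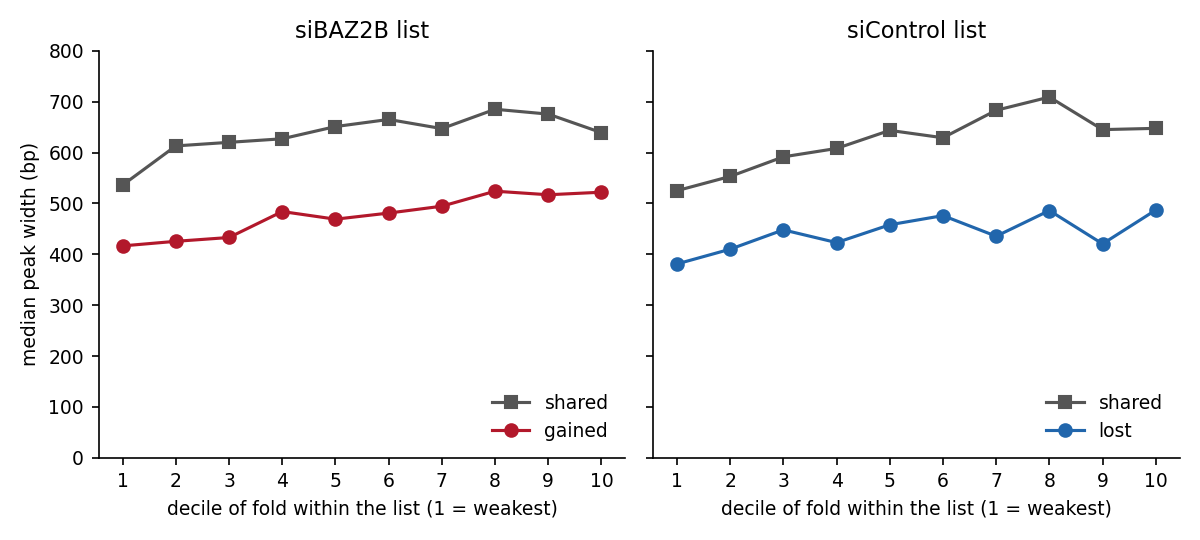
Median peak width in bp by decile of fold within the siBAZ2B list (left) and the siControl list (right), for shared peaks (grey squares) and for gained (red) or lost (blue) peaks. Shared peaks are wider in all 10 deciles of both lists.

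Most shared peaks met exactly 1 counterpart. The 2734 overlaps held 2673 one-to-one pairs, in which neither peak touched another peak of the other list. In these pairs the peaks nearly coincided. A median of 99.7% of the shorter peak was in common, the common part had a median length of 525 bp, and 92.1% of pairs (91.02 to 93.1) had at least 50% of each peak in common. Paired widths were alike, with medians of 642 bp in siBAZ2B and 632 bp in siControl and a median ratio of 1.02 (1.004 to 1.03). The siBAZ2B peak was the wider one in 52.3% of pairs. It was at least 1.5 times wider in 10.3%, and the siControl peak was at least 1.5 times wider in 9.35%. In 26.3% of pairs the siBAZ2B peak covered the whole siControl peak, and in 22.6% the reverse was true.

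Within-list ranks of paired peaks were related but loose. Across the 2673 pairs, percentiles of fold had a Spearman rho of 0.583 and a Pearson r of 0.582. These are descriptions across peaks, which are not independent replicates and share local copy number and base composition, and no p-value was computed. Of the paired peaks in the top decile of siControl, 57.8% (52.4 to 63.0) were also in the top decile of siBAZ2B, and 3.34% were below percentile 50 there. Read the other way, 45.2% of paired top-decile siBAZ2B peaks were in the top decile of siControl and 9.29% below its percentile 50. The lists differ in length, so these shares do not measure a change. In 114 pairs the siBAZ2B percentile was at least 50 points above the siControl one, and in 62 it was at least 50 points below. Over all pairs the median difference was 0.650 points (0.0621 to 1.51). For the same reason these numbers do not measure a change either.

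**Figure D3:**
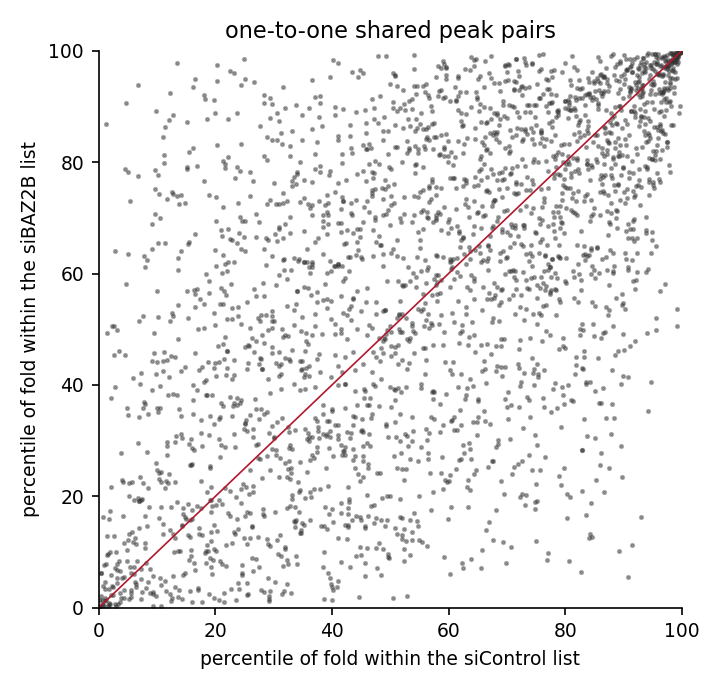
Percentile of fold within the siControl list (x axis) and within the siBAZ2B list (y axis) of the 2673 one-to-one shared pairs, 1 point per pair, with the line of equal percentile in red. Points gather at the upper right corner and spread widely over the middle ranks (Spearman rho 0.583).

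The 5 shared pairs of highest siBAZ2B fold also ranked high in siControl. The siBAZ2B peak of rank 1, chr14:106641448-106641950 (fold 23.1), was rank 3 in siControl (22.4). The peak of rank 2, chr12:133841406-133842032 (22.9), was rank 1 in siControl (23.6), and chr13:110076328-110076817 was rank 3 against 9. The peaks chr22:23161862-23162375 and chrY:59362872-59363517 held ranks 4 and 5 in both lists. Summits of these 5 pairs lay 2 to 18 bases apart. Among the 5, only the chromosome 12 peak touched H3K4me3, whereas 92.4% of all shared siBAZ2B peaks did.

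Summits of paired peaks were close together. Paired peaks overlap by definition and summits sat near the middle of peaks, so part of this closeness is built into the rule. The median distance was 67 bp (63 to 71), with quartiles of 28 and 137 bp. In 33 pairs the summits fell on the same base, in 40.7% they were at most 50 bp apart, in 63.7% at most 100 bp and in 92.9% at most 300 bp. The siBAZ2B summit lay inside the siControl peak in 96.5% of pairs. There was no common direction along the chromosome, since the siBAZ2B summit had the higher coordinate in 50.2% of pairs and the lower one in 48.6%, with a median signed difference of 1 bp (−1 to 3). Genes were not assigned, so shifts relative to transcription were not analysed here.

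Summit distance varied with strength more than with width. It was 44 bp (40 to 48) for pairs whose siBAZ2B peak was in the strongest 20% of its list and 93 bp (78 to 109) for those in the weakest 20%. Over quintiles of siBAZ2B width the median was 60, 61, 74, 77 and 68 bp from narrow to wide. On H3K4me3 the median was 67 bp and off it 63 bp (48 to 78). The other pairings of BG4 lists gave medians of 64 bp (60 to 67) over 2535 pairs of siBAZ2A with siControl and 69 bp (65 to 72) over 3227 pairs of siBAZ2A with siBAZ2B. Each of these pairings has 1 list in common with the comparison of siBAZ2B and siControl, so they are not independent of it.

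**Figure D4:**
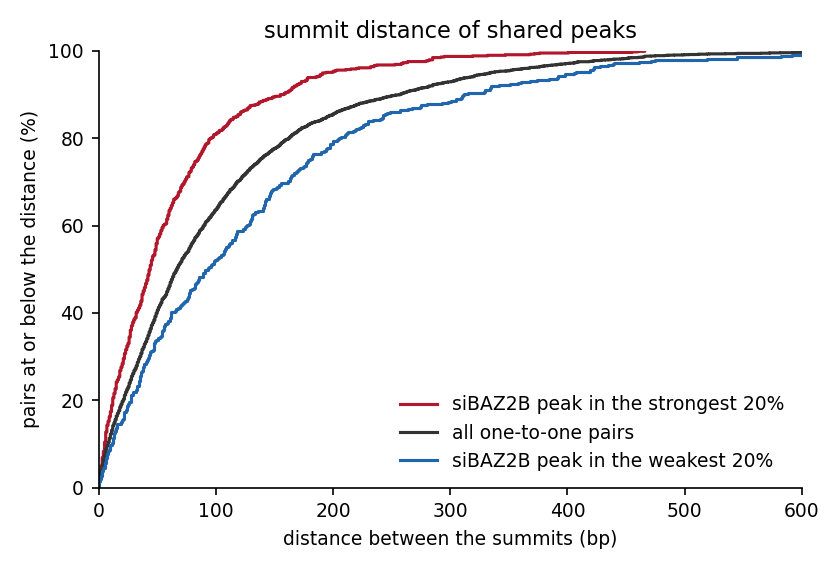
Cumulative share of one-to-one pairs, in percent, by the distance between their summits in bp, for all 2673 pairs (black), for pairs whose siBAZ2B peak is in the strongest 20% (red, 768 pairs) and in the weakest 20% (blue, 392 pairs) by fold. Median distances are 67, 44 and 93 bp.

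The largest summit distances came from wide or barely touching peaks, all 5 of them on H3K4me3. At chr7:99698643-99699565 the siBAZ2B summit lay 1007 bp from that of the siControl peak chr7:99698213-99698698, and the peaks had 56 bases in common. At chr19:47776585-47777845 the distance was 923 bp although the siControl peak contained all 1261 bases of the siBAZ2B peak. Percentiles of fold there were 11.2 in siBAZ2B and 56.3 in siControl. At chr1:27692100-27692507 the distance was 964 bp, and the siControl peak was 1303 bp wide against 408 bp. The 5 pairs count as shared although their summits were 790 to 1007 bp apart.

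Few gained or lost peaks sat just outside the border of the overlap rule. Just inside it, the pair with fewest bases in common was at chr6:13574662-13575132, with 30 bases, followed by chr10:103113500-103113798 with 46 and chrX:100662741-100663176 with 49. Just outside it, the gained peak nearest to siControl was chr4:119757356-119757654, 40 bases from a siControl peak, followed by peaks 70 to 103 bases away on an alternate chromosome 6 haplotype and on chromosomes 3, 7 and 12. Of the 5, 4 lay on H3K4me3. Counting a gap of up to 1 kb as shared would move only 32 gained peaks and 19 lost ones. A stricter rule changed the numbers more. With 50% of each peak asked to be in common, 2393 peaks were gained and 860 lost, against 2139 and 621.

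Few H3K4me3 regions with a gained peak also held a siControl peak. By definition a gained peak overlaps no siControl peak, and most regions held at most 1 peak of a list. This share therefore shows no preference for regions without a siControl peak. Of the 1878 gained peaks on H3K4me3, 22 (1.17%, 0.775 to 1.77) were on a region that also held a siControl peak. Of the 492 lost peaks on H3K4me3, 11 (2.24%, 1.25 to 3.96) were on a region that still held a siBAZ2B peak. Among regions with BG4, 4299 regions had 1 siBAZ2B peak and 51 had 2, and for siControl the numbers were 2966 and 17. Counted by region, 2500 H3K4me3 regions had BG4 in both lists, 1850 in siBAZ2B only and 483 in siControl only. The 1850 were 11.8% of the 15613 regions without a siControl peak, and the 483 were 16.2% of the 2983 regions with one.

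Gains and losses were distributed unevenly over the widths of H3K4me3 regions. Among regions without a siControl peak, 4.21% of the narrowest quintile (3.59 to 4.92) held a siBAZ2B peak, against 6.71%, 12.7%, 19.7% and 18.9% (17.5 to 20.5) in the wider ones. Among regions with a siControl peak, the share with no siBAZ2B peak had the opposite order, from 28.9% (23.03 to 35.5) in the narrowest to 12.9% (11.04 to 14.9) in the widest. A wider region has more room for a chance overlap. By strength of the H3K4me3 region the differences were smaller. Of regions without a siControl peak, 6.62% in the weakest quintile held a siBAZ2B peak and 13.6 to 14.2% in the 3 strongest. Of regions with a siControl peak, the share with no siBAZ2B peak stayed between 12.7 and 18.9% with no order. Regions under gained peaks had a median width of 1352 bp (1331 to 1372), those under lost peaks 1354 bp (1278 to 1398) and those under shared siBAZ2B peaks 1471 bp (1447 to 1495), against 1125 bp for all H3K4me3 regions. Their median percentile of H3K4me3 fold was 58.0 (55.9 to 60.01) under gained and 49.6 (47.7 to 51.4) under shared peaks.

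The median distance of the BG4 summit from the H3K4me3 summit was 128.5 bp for gained (119 to 139), 126 bp for shared siBAZ2B (118 to 136) and 133 bp for lost peaks (116 to 154), with overlapping intervals. The central 50% of the region held the summit in 70.6% of gained (68.5 to 72.6) and 70.5% of shared siBAZ2B peaks (68.7 to 72.3). For lost peaks the share was 64.4% (60.1 to 68.5) and for shared siControl peaks 71.2% (69.4 to 72.9), intervals that do not overlap. Gained peaks lay wholly inside the region in 82.6% of cases (80.8 to 84.2) and shared siBAZ2B peaks in 76.7% (75.01 to 78.3). In the siControl list the shares were 78.0% for lost (74.2 to 81.5) and 77.0% for shared peaks (75.3 to 78.6). A narrower peak fits inside a region more easily and gained peaks were the narrower set, so these shares do not compare placement alone.

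Gained peaks were mostly far from siControl peaks. The median gap between edges was 147373 bases (133362 to 163792), and 6.78% of gained peaks (5.79 to 7.92) had a siControl peak within 10 kb. For the 13763 H3K4me3 regions without BG4 in either list, the median gap to a siControl peak was 235332 bases and the share within 10 kb 5.04% (4.69 to 5.42). Lost peaks lay nearer to the longer siBAZ2B list, with a median gap of 64010 bases (53635 to 73343) and 14.7% within 10 kb (12.1 to 17.6). The same H3K4me3 regions had a siBAZ2B peak within 10 kb in 6.79% of cases (6.39 to 7.23). Both sets were thus nearer to the other list than H3K4me3 regions without BG4, and the contrast was larger for lost peaks. These regions differ from gained and lost peaks in width and in the strength of the mark, and the part of those differences was not tested.

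Within the siBAZ2B list, gained peaks were less crowded than shared ones. Another siBAZ2B peak of either kind lay within 10 kb of 9.77% of gained (8.58 to 11.1) and 14.1% of shared peaks (12.9 to 15.5), and the median gaps were 91814 and 52736 bases. Another gained peak lay within 10 kb of 5.14% of gained peaks (4.28 to 6.16). In the siControl list the shares were 13.8% for lost (11.3 to 16.8) and 11.9% for shared peaks (10.7 to 13.2), whose intervals overlap.

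**Figure D5:**
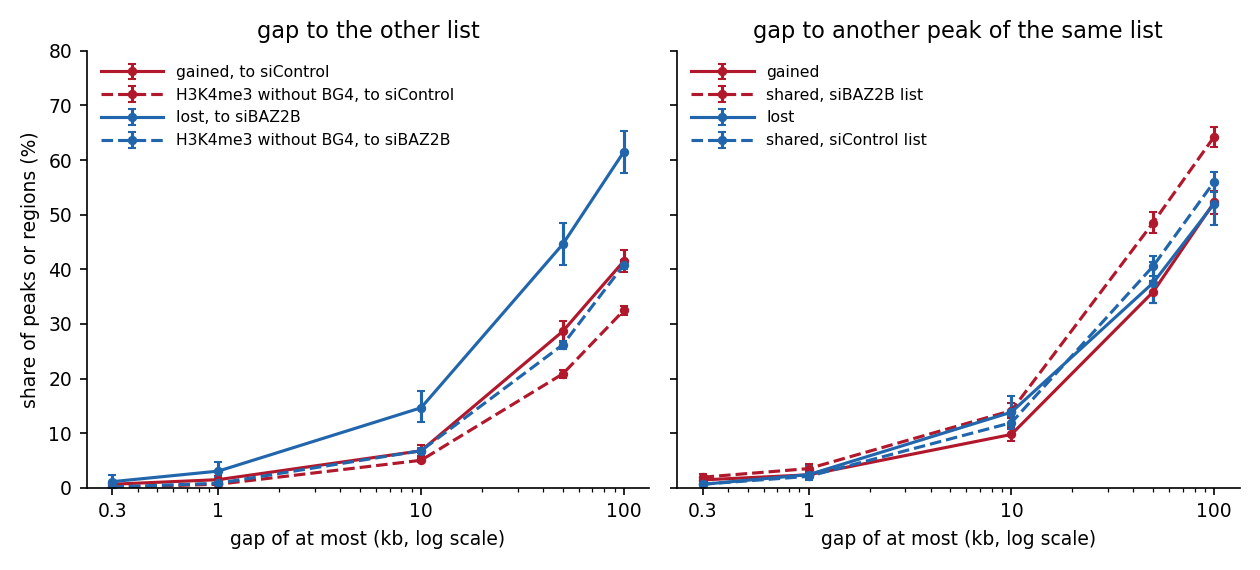
Share of peaks or regions, in percent, whose gap to the nearest peak is at most 0.3, 1, 10, 50 or 100 kb (log axis), with 95% Wilson intervals; left, gaps to the other list for gained (red) and lost (blue) peaks and, dashed, for H3K4me3 regions without BG4; right, gaps to another peak of the same list, with shared peaks dashed. At 10 kb, 14.7% of lost peaks and 6.78% of gained peaks have a peak of the other list.

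Chaining siBAZ2B peaks at gaps of at most 10 kb gave 269 clusters of 2 or more peaks, which held 594 peaks (12.2% of the list). Most were pairs (232 clusters), 26 had 3 peaks and 11 had more. Clusters were of 3 kinds: 48 held gained peaks alone, 122 shared peaks alone and 99 both. In siControl, 190 clusters held 409 peaks, and 13 of them held lost peaks alone. The 4271 siBAZ2B peaks outside clusters stood singly.

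The largest cluster spanned 35123 bases at chr2:92290661-92325783, with 9 siBAZ2B peaks, 4 of them gained, and 6 siControl peaks. It lies next to the centromere of chromosome 2, where sequence is repetitive and reads are hard to place. Only 1 of its 9 peaks touched H3K4me3. The gained peaks there were weak, with percentiles of fold of 0.257, 0.421, 0.606 and 12.1, and the shared ones ranged from 0.380 to 59.03. No other cluster exceeded 3 gained peaks. Those with 3 were chrX:115001847-115005276 (3 of 3 peaks, folds of 3.10 to 3.32, all on H3K4me3), chr15:30389962-30403121 (3 of 3) and chr17:2296044-2310896 (3 of 4), and the tightest with 2 was chr7:139025050-139025794, 745 bases long. Clusters of lost peaks held at most 2. The tightest was chr8:63951234-63951984, 751 bases long and on H3K4me3. Next came chr17:1642641-1643966, outside H3K4me3, and chr14:105154300-105155874, with 1 of 2 peaks on H3K4me3. After these came chr17:73029852-73031575 and chr1:27189293-27191945, both on H3K4me3.

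Over windows of 1 Mb, gains were scattered. A peak of either list was in 1639 windows, a gained peak in 1204 and a lost peak in 460, and 326 had both. A single gained peak was the most common case (697 windows), and 51 windows held 5 or more. Gained peaks outnumbered lost ones in 1036 windows and the reverse was true in 169. Of the gained peaks, 72.7% (70.7 to 74.5) fell in a window with a siControl peak, and 585 fell in 428 windows with none. Only these 428 of the 1639 windows lacked a siControl peak. The 1639 leave out windows without any peak, and a window without a siControl peak is counted only if it holds a siBAZ2B peak. The share therefore cannot tell whether gained peaks preferred windows with a siControl peak.

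The windows with the largest surplus either way held many H3K4me3 regions, 19 to 44 in the 5 with most gains and 13 to 32 in the 5 with most losses, against a median of 7 over the 1639 windows. On chromosome 15, from 65 to 66 Mb, 9 peaks were gained and 1 lost, which took the count from 2 siControl to 10 siBAZ2B peaks over 19 H3K4me3 regions. On chromosome 16, from 57 to 58 Mb, 7 were gained and none lost (2 and 9 peaks). Chromosome 19 from 46 to 47 Mb had 8 gained and none lost (11 and 19 peaks), chromosome X from 48 to 49 Mb 7 and none, and chromosome 17 from 7 to 8 Mb 6 and none, a surplus that 3 windows share. The largest surplus of losses was 4 peaks, on chromosome 19 from 48 to 49 Mb (6 lost and 2 gained) and on chromosome 17 from 1 to 2 Mb (4 lost and none gained). At the next surplus, of 3 losses, 4 windows tied, of which 3 are among the 5 above. On chromosome 19 the 2 windows with opposite surplus are 1 Mb apart.

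Some shared places were divided differently in the 2 lists. A siControl peak met 2 siBAZ2B peaks in 21 cases and 3 in 1 case, and a siBAZ2B peak met 2 siControl peaks in 8. The case with 3 was on chrUn_gl000220, a contig that in this build carries copies of the ribosomal RNA gene repeat, which BAZ2A is known to silence. There the siControl peak at 105182 to 106961 (1780 bp, fold 2.79) met siBAZ2B peaks of 1048, 319 and 390 bp, with folds of 1.92 to 2.48. On the same contig the siControl peak at 149154 to 150911 (1758 bp, fold 2.90) met 2 siBAZ2B peaks of 1013 and 466 bp. Near-identical copies of the repeat share reads, so these 2 places are not independent. Outside the contigs, the siControl peak chr1:155292939-155294297 (1359 bp) met siBAZ2B peaks of 711 and 459 bp, and the siBAZ2B peak chr6:58776997-58779395 (2399 bp) met siControl peaks of 622 and 299 bp.

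Alternate haplotypes, unplaced contigs and chromosomes Y and M made up a small part of the comparison. Alternate haplotype sequences repeat parts of chromosomes 6 and 17 and so count 1 locus several times. They held 38 gained (1.78%, 1.30 to 2.43) and 23 lost peaks (3.70%, 2.48 to 5.50). The shares were 1.43% of shared siBAZ2B peaks (1.05 to 1.95) and 1.44% of shared siControl peaks (1.05 to 1.96). Other unplaced contigs held 11 gained of 44 siBAZ2B peaks and 9 lost of 39 siControl peaks. Chromosome Y held 6 gained of 15 siBAZ2B peaks and 4 lost of 13 siControl peaks. Over the whole lists, 44.0% of siBAZ2B peaks were gained and 18.6% of siControl peaks lost, and these contig and chromosome Y counts are small. On chromosome M the widest peaks of both lists were shared, at 13007 to 16490 in siBAZ2B (3484 bp) and 12857 to 16485 in siControl (3629 bp), with folds of 1.89 and 1.88. Mitochondrial peaks show how far the 2 rankings can part, since this siBAZ2B peak stood at percentile 0.0514 by fold and 98.2 by −log10 q.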

How the data were processed

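BG4 CUT&Tag was done in 4 siControl and 4 siBAZ2B samples. The submitters' processing notes list the builds hg19 and dm6 and the tools Bowtie2 2.4.5, Picard, SAMtools 1.15.1, MACS2 2.1.4 and bedtools. The authors kept, per the labels, peaks seen in at least 2 replicates, with bedtools and the largest replicate's peaks as the base, so each group has 1 list. The deposited lists give fold enrichment (a ratio), −log10 q and the summit offset of each peak, which are the authors' values. Those of different lists were not scaled to each other here. Coordinates are hg19, 1-based.

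Overlaps, gaps, clusters and deciles were computed with Python 3.11.15, pandas 2.3.3, NumPy 2.4.6 and SciPy 1.17.1, and figures with matplotlib 3.10.9. The code was tested on simulated lists. Named loci are the peaks of highest fold (10 gained, 10 lost), the 5 pairs, divided peaks and clusters that lead each measure, the 5 windows with the largest surplus either way (ties by number gained or lost, then list order) and the 5 nearest the overlap limit, some given as ranges. Members and rules were chosen with earlier results of these data known. Reference tables of another build were not used, so genes, gene lists and sequences were not analysed here.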

Additional observations from a re-analysis of the deposited data

How the results depend on the processing

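No paired analysis was possible because the lists hold no value per replicate, and leaving out a replicate could not be done either. Of 60 recomputed values, 33 stayed within 1.5 times (counts) or within the 95% interval of the reported value, and 27 moved. Leaving out chromosome M, chromosome Y and contigs, allowing a gap of 1 kb, or merging peaks to loci moved none. Cutting both lists to 3332 peaks gave 1263 gained and 1259 lost peaks, median percentiles of 36.3 (gained) and 26.3 (lost), a summit distance of 62 bp, and 4.12% of gained peaks within 10 kb of a siControl peak and 2.06% within 10 kb of another gained peak. The stronger 50% of each list gave 1215 gained and 1217 shared peaks, a lost percentile of 30.6, a width ratio of 0.766, a summit distance of 50 bp and shares of 2.63% and 0.988%. A −log10 q of at least 5 gave percentiles of 41.7 and 29.4, a summit distance of 61 bp and 4.22% of gained peaks near another gained peak. Asking for 50% reciprocal overlap gave a lost percentile of 25.6 and shares of 16.7% and 7.10%, since peaks that overlap by less then count as gained. Ranking by −log10 q gave percentiles of 31.5 and 19.5. A limit of 50 kb gave shares of 28.7% and 19.1%, and 1 kb gave 1.5% for both. Gained and lost peaks stayed below the middle of their lists, and gained peaks narrower than shared ones, under every setting run for these values. The cause of the other shifts was not tested. Read depth, which limits how many weak peaks a replicate yields, is not known.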
